A study of Mus musculus with 4 samples.

Results

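This account covers 46 mouse genes of the G2/M transition, the spindle checkpoint and chromosome segregation in nimodipine-treated N9 cells, which are mouse microglia kept as an immortalised line. They were chosen by name, with kinesin motors other than Cenpe left out, and a gene was taken as measured where a probe set carried its symbol alone. Of the 46 genes, 44 were measured among 22180 genes in all; Ccnb1 had no probe set under its own symbol here, and the Ncapg probe set also carried the symbol of another gene. Cks2 was the 1 member with several probe sets (4), of which 3 held the same values; the one with the highest mean was used. Nimodipine belongs to the dihydropyridines, which block calcium channels of the L type. One array came from N9 cells given 10 µM nimodipine, 1 from N9 cells given 20 µM nimodipine and 2 from N9 cells given vehicle, and all were grown in DMEM with serum and antibiotics. The study concerns a single immortalised line, the duration of exposure is not given in the sources used here, and each dose had no replicate. The treatment protocol names a vehicle for each dose without saying which array is which, so the vehicle arrays may be different controls; they were taken here as 2 replicates, and every SE, p-value and vehicle mean rests on that.

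A cell enters mitosis when Cdk1, bound to cyclin A or cyclin B, is activated by Cdc25 phosphatases, and Plk1 and the Aurora kinases then build the spindle and correct wrong attachments of chromosomes. Kinetochores that are not attached keep the spindle checkpoint active, which holds back Cdc20 and the anaphase-promoting complex until every chromosome is attached; separase then cuts cohesin and the cell divides. Most of these genes are transcribed in G2 and mitosis, through the MuvB complex with B-Myb and FoxM1, and are silenced in resting cells by the DREAM complex. In microglia, which are long-lived, they are known as markers of proliferation, and a cell line such as N9 divides continuously in culture. In such a bulk sample, fewer cells in G2 or mitosis and less RNA per cell cannot be told apart.

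The values are log2 expression after RMA (robust multi-array average), so a shift common to most of the genes is removed. The medians of all probe sets lay between 5.02 and 5.06 on the 4 arrays. Of 12 microglia and macrophage markers, 10 averaged no less than 5.04, the median over all values, among them Cd68, Csf1r and Tyrobp, while P2ry12 and Tmem119, which mark microglia in tissue, lay below it on every array. Of 26 markers of astrocytes, neurons, oligodendrocytes, fibroblasts and endothelium, 11 averaged no less than 5.04 and 1 of them (Mbp) 7 or more, and the sum of their unlogged values was 1050 at 10 µM and 1146 at 20 µM, against 1081 and 1068 in vehicle. For the microglia markers that sum was 26001 at 10 µM and 26468 at 20 µM, against 26089 and 26537 in vehicle. By number, 9 of the 12 microglia markers were below the vehicle mean at 10 µM (median difference -0.13), with Itgam at -0.77 (limma adjusted p 0.0806) and Ptprc at -0.43, and 6 of 12 at 20 µM; their part in the results was not tested. No marker in these lists was called by limma in any comparison.

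At 10 µM nimodipine the mitotic genes were lower almost throughout. Of the 44 measured genes, 43 lay below both vehicle arrays, beside 35.4% of all genes, and Mad2l1 lay above both. Their median log2 level was 8.48 at 10 µM and 9.27 at 20 µM, against 9.39 and 9.54 in the vehicle arrays. The median difference from the vehicle mean was -0.99 on the log2 scale at 10 µM and -0.11 at 20 µM, beside 0.01 and -0.00 over all genes. Below that mean lay 43 members at 10 µM, beside 47.6% of all genes, and 34 at 20 µM, beside 50.7%. In a limma fit of 3 groups with Benjamini-Hochberg adjustment over all genes (threshold 0.05), 22 of the 44 fell at 10 µM and 0 rose; of all genes, 1.08% were called lower and 0.509% higher, and 1.85% were called lower among genes at or above the median level, where all 44 members lay. A difference of -1 or beyond, counted with no test, was reached by 22 members, beside 1.06% of all genes, and 21 of these were among the called ones. The levels ranged widely, with means over the arrays between 7.03 for Melk and 11.37 for Mki67. Because the dose had 1 array, the fit takes that array to vary like the vehicle pair (residual df 1). The count of called members was 36 when only genes at or above the median level were tested, 37 with a mean-variance trend, and 14 when all probe sets were tested; at an adjusted p under 0.01 it was 0.

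**Figure D1:**
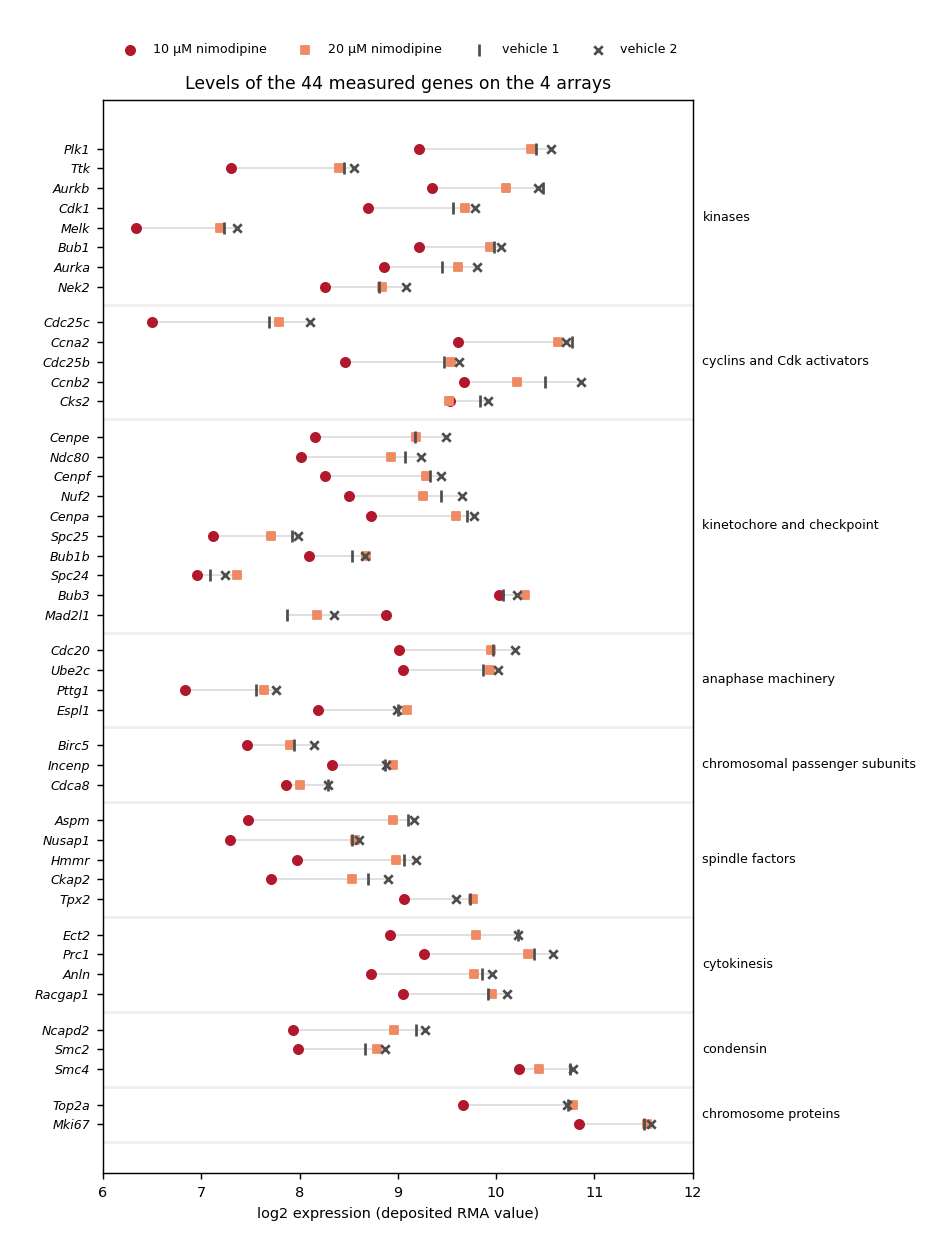
Log2 expression (x axis, deposited RMA values) of each of the 44 measured genes, with 1 symbol per array and genes grouped by role. The 10 µM symbols lie left of both vehicle symbols for 43 genes and right of them for Mad2l1, while the 20 µM symbols lie close to the vehicle symbols.

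At 20 µM no member passed the test in the 3-group fit (smallest limma adjusted p 0.762), nor did any other gene (0.0% in each direction). At an unadjusted p under 0.05, 2 members were lower, beside 3.14% of all genes, and 0 were higher. The 20 µM array lay below both vehicle arrays for 24 members, beside 35.1% of all genes, above both for 7, beside 34.5%, and between them for 13. The members also differed between the vehicle arrays: 37 of 44 were higher in vehicle 2 than in vehicle 1, beside 49.8% of all genes, with a median difference of 0.13, and none was lower there by 1 or more, beside 0.0676% of all genes. Against vehicle 1 alone 24 members were lower at 20 µM, with a median difference of -0.04, and against vehicle 2 alone 37 were, with a median of -0.18. At 10 µM, 43 were lower than either vehicle array alone, with medians of -0.88 and -1.06, and 41 lay below both vehicle arrays by more than the gap between those arrays. At 20 µM, 10 members lay below both by more than that gap. The gap was very small for some members, such as Cdca8 (vehicle 2 minus vehicle 1, -0.0034). No share over all genes is given for the gap counts or for the counts against single vehicle arrays. Those counts therefore describe the members only and do not show that they were unusual.

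The arrays of the 2 doses were set against each other in the same fit. The 10 µM array was lower than the 20 µM array for 42 of 44 members, with a median difference of -0.86, beside 0.00 over all genes. Aspm alone passed the threshold (difference -1.47 ± 0.17, limma SE; limma adjusted p 0.0465), while 0.171% of all genes were called lower and 0.144% higher. At an unadjusted p under 0.05, 36 members were lower, beside 7.35% of all genes. The number of members called was 28 when only genes at or above the median level were tested and 30 with a trend. It was 0 when all probe sets were tested and 0 at an adjusted p under 0.01, so Aspm was not called there. No share of all genes is given for these settings, so the counts of 28 and 30 are not read as a result about the members. Both doses share the vehicle arrays, so the values at each dose are given side by side.

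With both doses taken as 1 group of 2 arrays against the 2 vehicle arrays, 0 members and 0.0% of all genes passed the threshold (smallest limma adjusted p 0.792). At an unadjusted p under 0.05, 9 members were lower, beside 2.98% of all genes. Both nimodipine arrays lay below both vehicle arrays for 24 members, beside 18.2% of all genes. The spread within the nimodipine pair held the difference between doses. Leaving out the 20 µM array only repeated the earlier test of the lower dose against vehicle, so it gives no separate count.

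**Figure D2:**
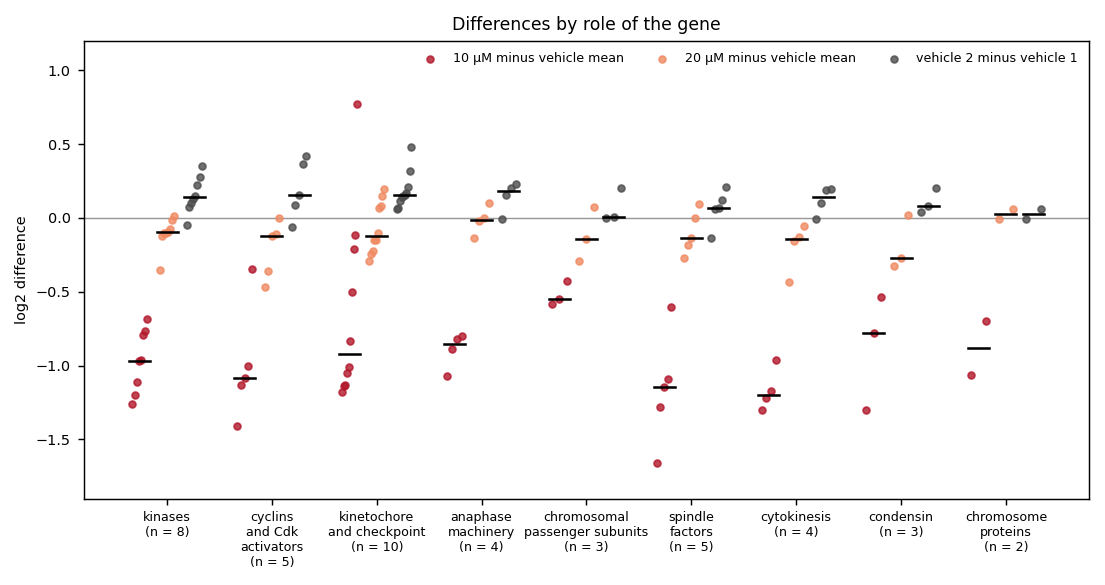
Log2 differences (y axis) of the measured genes in 9 roles (x axis), with points for single genes and black bars for medians. At 10 µM the medians of the roles lie between -1.20 for cytokinesis genes and -0.55 for chromosomal passenger subunits; at 20 µM and between the vehicle arrays they lie nearer to 0.

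Many mitotic promoters carry a cell cycle genes homology region (CHR), the element bound by MuvB and DREAM, downstream of CCAAT boxes bound by the factor NF-Y. The RefSeq promoter windows (GRCm38.p6, 250 bases before to 50 after a transcript start) were searched on both strands for TTTGAA and TTCGAA as CHR and for CCAAT; no motif contains another, neighbouring matches may share end letters, and TTCGAA is its own reverse complement. The table held 42 windows for 39 of the 46 members and 32851 windows in all. TTTGAA was found in 30 of the 42 windows (71.4%), beside 17.9% of all windows, and TTCGAA in 4 (9.52%), beside 1.56%. CCAAT was found in 34 (81.0%), beside 37.4%. A CHR of either spelling lying wholly within 50 bases of the start was found in 66.7% of member windows, beside 5.31% of all. In windows of DNA replication genes that share was 5.0% of 40 windows, and in those of mitotic kinesins 72.7% of 11. In those of the other cell division genes listed below it was 26.1% of 119. Of the 32 member windows with a CHR, 29 also had a CCAAT upstream of the CHR nearest the start, with a median distance of 35 bases between the first letters of the matches. No share over all windows is given for that order or distance, so it describes the member windows only.

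The windows shown are those of the members with the largest decrease in 4 roles (kinases, cyclins and Cdk activators, kinetochore and checkpoint, anaphase machinery), of the member with the smallest difference, Bub3, and, chosen after their values were seen, of Aspm and Mad2l1, which had the lowest and the highest difference. Genes without a window, such as Cdc25c and Ccna2, were passed over. They are printed 5′ to 3′ on the strand of the gene, with matches to the 3 motifs in capitals on either strand (TTCAAA and ATTGG are the reverse complements of TTTGAA and CCAAT). The coordinates are chr7:122159185-122159484 (plus strand) for Plk1, chr2:131186698-131186997 (plus strand) for Cdc25b, chr3:135212313-135212612 (plus strand) for Cenpe, chr4:118437294-118437593 (minus strand) for Cdc20, chr7:131560120-131560419 (plus strand) for Bub3, chr1:139454523-139454822 (plus strand) for Aspm and chr6:66534971-66535270 (plus strand) for Mad2l1.
Plk1: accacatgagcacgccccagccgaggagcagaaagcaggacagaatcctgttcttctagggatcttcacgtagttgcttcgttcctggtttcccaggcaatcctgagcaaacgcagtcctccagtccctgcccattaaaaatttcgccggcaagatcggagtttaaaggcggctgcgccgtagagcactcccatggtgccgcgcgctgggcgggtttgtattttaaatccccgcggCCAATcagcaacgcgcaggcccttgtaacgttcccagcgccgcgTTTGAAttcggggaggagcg
Cdc25b: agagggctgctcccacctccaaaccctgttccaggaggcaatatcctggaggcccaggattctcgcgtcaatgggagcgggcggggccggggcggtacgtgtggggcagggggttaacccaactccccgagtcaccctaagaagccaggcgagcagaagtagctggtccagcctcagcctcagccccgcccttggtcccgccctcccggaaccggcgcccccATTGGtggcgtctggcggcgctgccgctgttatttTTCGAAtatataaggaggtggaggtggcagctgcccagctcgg
Cenpe: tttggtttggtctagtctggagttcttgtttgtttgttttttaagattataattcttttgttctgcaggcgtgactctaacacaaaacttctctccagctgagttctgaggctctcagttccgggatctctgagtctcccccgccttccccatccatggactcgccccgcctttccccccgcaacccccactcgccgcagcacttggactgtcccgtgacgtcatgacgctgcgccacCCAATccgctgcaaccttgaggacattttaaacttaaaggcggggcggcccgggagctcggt
Cdc20: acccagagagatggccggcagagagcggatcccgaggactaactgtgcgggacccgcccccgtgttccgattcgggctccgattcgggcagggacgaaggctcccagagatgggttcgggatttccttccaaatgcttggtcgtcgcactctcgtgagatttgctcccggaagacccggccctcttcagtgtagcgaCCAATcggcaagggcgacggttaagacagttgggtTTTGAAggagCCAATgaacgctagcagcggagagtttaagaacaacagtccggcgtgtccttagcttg
Bub3: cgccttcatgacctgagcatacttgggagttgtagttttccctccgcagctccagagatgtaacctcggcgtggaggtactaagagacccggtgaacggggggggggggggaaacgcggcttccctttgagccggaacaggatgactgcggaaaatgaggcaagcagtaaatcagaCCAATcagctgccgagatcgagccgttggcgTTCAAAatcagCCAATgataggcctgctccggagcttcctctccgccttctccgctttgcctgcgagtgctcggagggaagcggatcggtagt
Aspm: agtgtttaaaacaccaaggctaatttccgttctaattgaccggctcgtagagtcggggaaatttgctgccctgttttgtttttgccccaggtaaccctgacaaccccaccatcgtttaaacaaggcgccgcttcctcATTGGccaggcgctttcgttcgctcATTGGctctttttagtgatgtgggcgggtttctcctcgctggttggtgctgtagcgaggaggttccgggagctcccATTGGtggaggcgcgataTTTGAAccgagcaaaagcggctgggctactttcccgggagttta
Mad2l1: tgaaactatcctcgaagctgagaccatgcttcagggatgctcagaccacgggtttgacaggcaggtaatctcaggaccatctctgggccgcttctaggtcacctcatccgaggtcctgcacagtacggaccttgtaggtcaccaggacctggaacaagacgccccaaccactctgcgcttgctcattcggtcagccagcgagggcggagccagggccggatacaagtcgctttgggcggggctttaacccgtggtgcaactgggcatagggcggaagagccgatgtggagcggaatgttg
The Plk1, Cdc25b, Cdc20, Bub3 and Aspm windows held a CHR and at least 1 CCAAT, the Cenpe window held 1 CCAAT, and the Mad2l1 window held none of these letters. A match is a description of the sequence. Among the 37 measured members with a window, the median difference at 10 µM was -1.04 for the 28 with a CHR and -0.82 for the 9 without, and the ranges overlapped (-1.66 to -0.12 with, -1.28 to 0.77 without). It was -1.0033 for the 29 with a CCAAT and -1.0045 for the 8 without. Called lower at 10 µM were 15 of the 28 with a CHR and 4 of the 9 without, beside 1.08% of all genes. For CCAAT these counts were 14 of 29 with and 5 of 8 without. The differences between these groups were not tested. Bub3, with a CHR and 2 CCAAT boxes, and Nusap1, with neither, were paired after their values were seen and differed by -0.12 and -1.28.

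**Figure D3:**
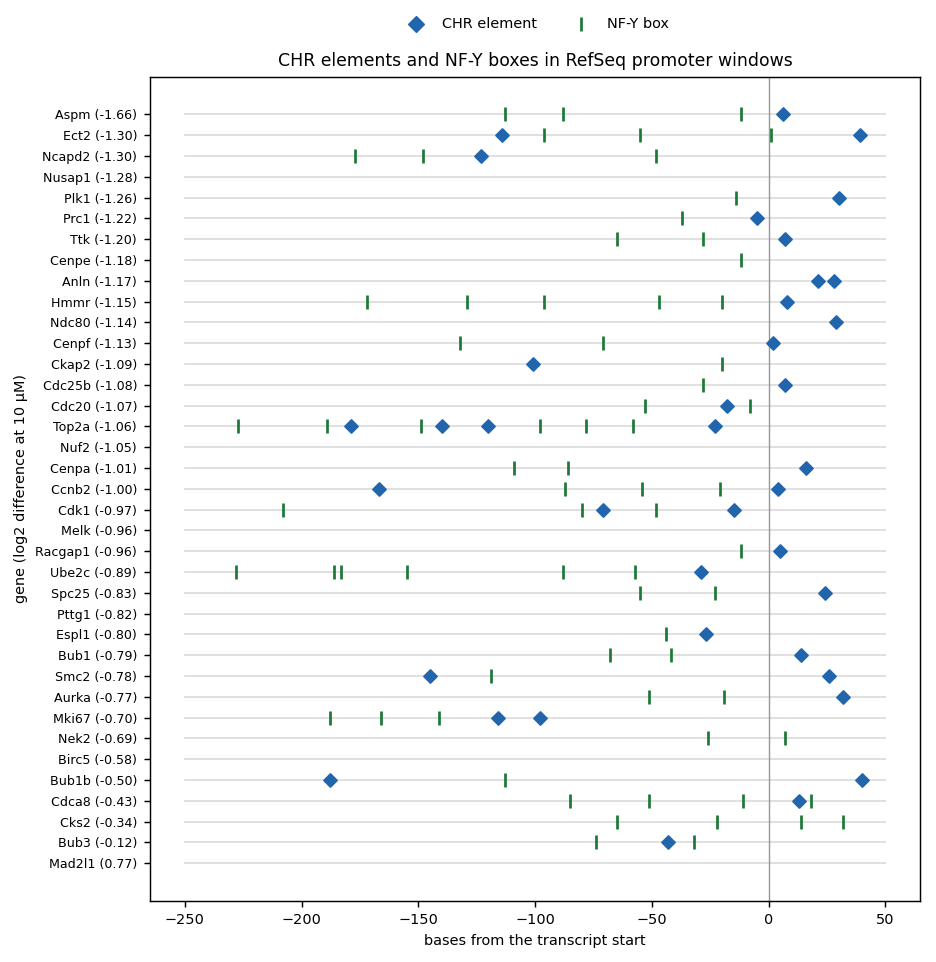
Positions of CHR elements (diamonds) and NF-Y boxes (bars) in bases from the transcript start (x axis) in the RefSeq windows of 37 measured members, ordered by their log2 difference at 10 µM (in brackets); where a gene had 2 windows the first is drawn. CHR elements gather near the start, with NF-Y boxes mostly upstream of them, from the top of the order to Bub3 near its foot.

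Among the 8 mitotic kinases, all were lower at 10 µM and 4 fell: Plk1, Ttk, Aurkb and Melk. Plk1, which acts from mitotic entry to cytokinesis, had a log2 level of 9.22 at 10 µM and 10.36 at 20 µM, against 10.41 and 10.56 in vehicle. Its difference at 10 µM was -1.26 ± 0.15 (limma SE), a 2.40-fold lower level (limma adjusted p 0.0296). Ttk, the checkpoint kinase also called Mps1, had 7.30 at 10 µM and 8.40 at 20 µM, against 8.45 and 8.55 in vehicle. Both genes were near vehicle at the higher dose. Aurkb, the catalytic subunit of the chromosomal passenger complex, had 9.35 at 10 µM and 10.10 at 20 µM, against 10.48 and 10.43 in vehicle. It was 2.16-fold lower at 10 µM (limma adjusted p 0.0342) and 1.28-fold lower at 20 µM (unadjusted p 0.0496). Nek2, a centrosomal kinase that parts the centrosomes, had the smallest difference of the 8, with 8.26 at 10 µM and 8.84 at 20 µM, against 8.81 and 9.09 in vehicle, and was not called (limma adjusted p 0.140). Cdk1, whose difference of -0.97 ± 0.16 missed the threshold at a limma adjusted p of 0.0574, had 8.70 at 10 µM and 9.68 at 20 µM, against 9.56 and 9.78 in vehicle. Melk had 6.334 at 10 µM and 7.196 at 20 µM, against 7.231 and 7.360 in vehicle, and was called at -0.96 ± 0.15 (limma adjusted p 0.0493), so these 2 genes with like differences lay on either side of the threshold. Aurka, which works at the spindle poles, and Bub1, a kinetochore kinase of the checkpoint, differed by -0.77 and -0.79 and were not called.

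All 5 measured cyclins and Cdk activators were lower at 10 µM, and 3 of them fell. Cdc25c, a phosphatase that removes the inhibitory phosphates of Cdk1, had 6.49 at 10 µM and 7.79 at 20 µM, against 7.69 and 8.11 in vehicle. It was 2.65-fold lower at 10 µM (limma adjusted p 0.0441) and its vehicle arrays lay 0.42 apart. Its relative Cdc25b had 8.46 at 10 µM and 9.54 at 20 µM, against 9.47 and 9.63 in vehicle, and was 2.12-fold lower at 10 µM (limma adjusted p 0.0418). At 20 µM both phosphatases lay between their vehicle arrays. Ccna2, which encodes cyclin A2 of S phase and early mitosis, had 9.61 at 10 µM and 10.63 at 20 µM, against 10.78 and 10.72 in vehicle. It was 2.19-fold lower at 10 µM (limma adjusted p 0.0338). Ccnb2, a cyclin B, was also lower by 1 on the log2 scale but not called: it had 9.67 at 10 µM and 10.21 at 20 µM, against 10.50 and 10.86 in vehicle, and its vehicle arrays lay 0.36 apart. Cks2, a small subunit of Cdk complexes, was the exception in size, with 9.53 at 10 µM and 9.52 at 20 µM, against 9.83 and 9.92 in vehicle. Its difference was -0.34 at 10 µM and -0.36 at 20 µM, and Cks2 and Mad2l1 were the 2 members not lower at 10 µM than at 20 µM; on its remaining probe set the difference at 10 µM was -0.13.

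Of the 10 kinetochore and checkpoint genes, kinases aside, 9 were lower at 10 µM, 5 fell, and 1, Mad2l1, was higher. Their differences at 10 µM had the largest SD across genes of the 9 roles (0.63). That SD includes Mad2l1 at 0.77, which was not called, and no SD without it is given. The other 9 genes lay between -1.18 for Cenpe and -0.12 for Bub3. Cenpe, a kinesin-like motor that carries chromosomes to the spindle equator, had 8.16 at 10 µM and 9.19 at 20 µM, against 9.17 and 9.49 in vehicle, and was 2.26-fold lower at 10 µM (limma adjusted p 0.0493). Cenpf, a large protein of the outer kinetochore, had 8.26 at 10 µM and 9.29 at 20 µM, against 9.33 and 9.44 in vehicle (limma adjusted p 0.0345 for 10 µM). Cenpa, the histone H3 variant of centromeres, had 8.73 at 10 µM and 9.59 at 20 µM, against 9.71 and 9.77 in vehicle, and was 2.01-fold lower at 10 µM (limma adjusted p 0.0420). The 4 subunits of the NDC80 complex, which grips microtubule ends, did not have like differences. Ndc80 had 8.02 at 10 µM and 8.93 at 20 µM, against 9.07 and 9.24 in vehicle, and fell by 1.14 at 10 µM; Nuf2 had 8.5015 at 10 µM and 9.2571 at 20 µM, against 9.4427 and 9.6554 in vehicle, and fell by 1.05. Spc25 differed by -0.83 ± 0.15 and Spc24 by -0.21 ± 0.15 (limma SE), and neither was called. Spc24 had 6.95 at 10 µM, below both vehicle arrays, and 7.36 at 20 µM, above both, against 7.09 and 7.24 in vehicle.

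Genes of the spindle checkpoint differed in size and direction. The differences at 10 µM were -1.20 for Ttk, -0.79 for Bub1, -0.50 for Bub1b, -0.12 for Bub3 and 0.77 for Mad2l1. Bub3, the adaptor that brings Bub1 and Bub1b to kinetochores, had 10.03 at 10 µM and 10.29 at 20 µM, against 10.07 and 10.22 in vehicle, so its 4 arrays lay within 0.26. Mad2l1, which encodes the Mad2 protein that binds and inhibits Cdc20, had 8.88 at 10 µM and 8.18 at 20 µM, against 7.87 and 8.35 in vehicle. It was the only member above both vehicle arrays at 10 µM, where 39.1% of all genes lay. The difference was 0.77 ± 0.22 (limma SE; 1.71-fold higher) and was not called (limma adjusted p 0.174), and the vehicle arrays lay 0.48 apart, the widest gap among the members.

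**Figure D4:**
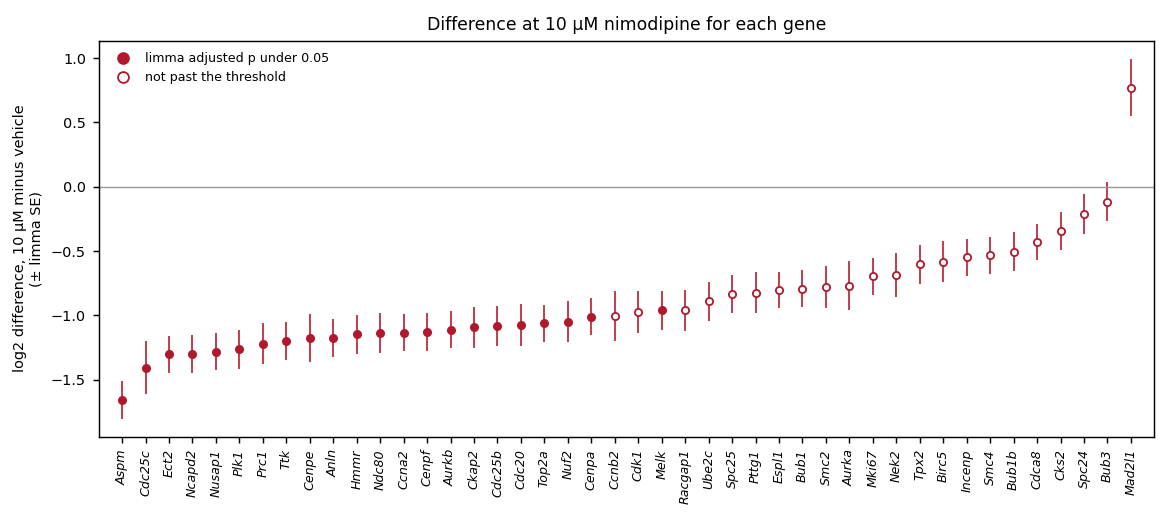
Log2 difference between 10 µM nimodipine and the vehicle mean (y axis) for the 44 measured genes in rising order, with bars of 1 limma SE; filled points passed a limma adjusted p of 0.05. The 22 filled points run from Aspm (-1.66) to Melk (-0.96), with the open points of Ccnb2 and Cdk1 between them, and Mad2l1 (0.77) stands alone above 0.

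The anaphase genes had differences close to each other: all 4 were lower at 10 µM, by 0.80 to 1.07, and 1 fell. Cdc20, which activates the anaphase-promoting complex and is the target of the checkpoint, had 9.01 at 10 µM and 9.95 at 20 µM, against 9.97 and 10.20 in vehicle (2.10-fold lower at 10 µM, limma adjusted p 0.0481). Ube2c, the ubiquitin-conjugating enzyme that works with that complex, had 9.06 at 10 µM and 9.94 at 20 µM, against 9.87 and 10.02 in vehicle. Pttg1, which encodes securin, had 6.84 at 10 µM and 7.64 at 20 µM, against 7.56 and 7.76 in vehicle. Espl1, which encodes separase, had 8.191 at 10 µM and 9.091 at 20 µM, against 8.997 and 8.988 in vehicle. In each of these 4 genes the 10 µM array was the lowest, and for the last 3 the limma adjusted p was between 0.0606 and 0.0806.

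Of the chromosomal passenger complex, the catalytic subunit Aurkb fell by 1.11 while the 3 other subunits had differences of about 0.5 and were not called. Birc5, which encodes survivin, had 7.46 at 10 µM and 7.90 at 20 µM, against 7.94 and 8.15 in vehicle. Incenp, the scaffold of the complex, had 8.33 at 10 µM and 8.95 at 20 µM, against 8.87 and 8.88 in vehicle. Cdca8, which encodes borealin, had 7.862 at 10 µM and 8.002 at 20 µM, against 8.293 and 8.289 in vehicle. Cdca8 lay below both vehicle arrays at both doses, whereas Incenp at 20 µM lay above both. The vehicle arrays lay very close for these genes (vehicle 2 minus vehicle 1, -0.0034 for Cdca8 and 0.0059 for Incenp), so lying outside them says little. At 20 µM the differences were -0.29 ± 0.14 for Cdca8 and 0.08 ± 0.14 for Incenp (limma SE), and neither was called. The differences between the subunits were not tested.

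The 5 spindle factors included the largest decrease of all members, and 4 of them fell. Aspm, which focuses spindle poles and is known for its role in brain size, had 7.48 at 10 µM and 8.95 at 20 µM, against 9.10 and 9.16 in vehicle. It was 3.15-fold lower at 10 µM (limma adjusted p 0.0146) and ranked 46 among the 22180 genes ordered from the lowest difference. Nusap1, which binds and bundles spindle microtubules, had 7.29 at 10 µM and 8.57 at 20 µM, against 8.54 and 8.60 in vehicle, a 2.43-fold lower level at 10 µM. Hmmr, a spindle assembly factor first known as a hyaluronan receptor, had 7.97 at 10 µM and 8.98 at 20 µM, against 9.06 and 9.18 in vehicle. Ckap2, a microtubule-binding spindle protein, had 7.71 at 10 µM and 8.53 at 20 µM, against 8.70 and 8.90 in vehicle, and fell by 1.09. Tpx2, which activates Aurora A on the spindle, had the smallest difference of the 5, with 9.06 at 10 µM and 9.76 at 20 µM, against 9.73 and 9.59 in vehicle (limma adjusted p 0.137).

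Cytokinesis genes had the lowest median of the 9 roles, and 3 of 4 fell. Ect2, the exchange factor that switches on RhoA at the cleavage furrow, had 8.92 at 10 µM and 9.79 at 20 µM, against 10.23 and 10.22 in vehicle. It was 2.47-fold lower at 10 µM (limma adjusted p 0.0238) and 1.35-fold lower at 20 µM (unadjusted p 0.0240), the smallest unadjusted p of the members at that dose. Prc1, which bundles the microtubules of the central spindle, had 9.26 at 10 µM and 10.32 at 20 µM, against 10.39 and 10.58 in vehicle. Anln, the scaffold of the contractile ring, had 8.73 at 10 µM and 9.78 at 20 µM, against 9.86 and 9.96 in vehicle. Racgap1, the partner of Ect2 in the central spindle, had 9.05 at 10 µM and 9.96 at 20 µM, against 9.91 and 10.11 in vehicle, and missed the threshold (limma adjusted p 0.0564).

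Condensin compacts mitotic chromosomes, and its 3 measured members were all lower at 10 µM. Ncapd2, a regulatory subunit of condensin I, had 7.93 at 10 µM and 8.96 at 20 µM, against 9.19 and 9.27 in vehicle, and fell 2.46-fold at 10 µM (limma adjusted p 0.0246). The ATPase subunits that both condensins share were not called. Smc2 had 7.99 at 10 µM and 8.79 at 20 µM, against 8.66 and 8.87 in vehicle, and Smc4 had 10.23 at 10 µM and 10.44 at 20 µM, against 10.75 and 10.79 in vehicle. Top2a, the topoisomerase that untangles sister chromatids, had 9.66 at 10 µM and 10.78 at 20 µM, against 10.73 and 10.72 in vehicle, and fell 2.09-fold at 10 µM (limma adjusted p 0.0366). Mki67, the proliferation marker Ki-67 that coats mitotic chromosomes, had 10.84 at 10 µM and 11.53 at 20 µM, against 11.51 and 11.57 in vehicle (1.62-fold lower at 10 µM, limma adjusted p 0.0929). It was the brightest member on all 4 arrays.

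Set among all genes, 18 of the 44 members were among the 200 with the lowest differences at 10 µM and 36 among the lowest 1000. Another 122 genes of cell division, in 9 lists, were measured of 129 listed. Of these, 11 fell at 10 µM and 0 rose, with a median difference of -0.40 at 10 µM and -0.10 at 20 µM. In the list of Cdk1 brakes, phosphatases and related genes, 3 of 9 fell. They included Mastl, the Greatwall kinase that restrains the phosphatase opposing Cdk1, and Bora, a cofactor of Aurora A. Mastl had 6.47 at 10 µM and 7.80 at 20 µM, against 8.14 and 8.24 in vehicle (limma adjusted p 0.0146). In the abscission and furrow list 3 of 12 fell, led by Depdc1a (-1.69) and Iqgap3 (-1.27). Ncaph, the kleisin subunit of condensin I, fell by 1.27, 1 of 4 further condensin genes, and Ncapd3 of condensin II differed by -0.91 and was not called. In the centrosome and spindle pole list 2 of 21 fell, with Haus4 at -1.15, and Tacc3 at -1.06 not called. In the list of other kinetochore genes 1 of 24 did, Cenpi at -0.94, with Cenpp at -0.92 not called. Cenpi lay at the threshold itself, with a limma adjusted p that rounds to 0.05. In the list of other checkpoint and related genes 1 of 8 fell, Cdca2, with Trip13 at -0.75 not called. The remaining called genes were named after their values were seen. They were Gtse1, grouped in the Cdk1 list, Cit, the citron kinase, in the furrow list and Psrc1 in the spindle pole list.

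In 3 lists no gene was called. For the 14 transcriptional regulators the median was -0.31 at 10 µM and -0.14 at 20 µM, with Rbl1, the p107 subunit of DREAM, at -0.86 and E2f8 at -0.84 at 10 µM. Foxm1, named outside the rule for its role as an activator of these genes, differed by -0.70 at 10 µM and -0.27 at 20 µM (limma adjusted p 0.0943 at 10 µM). The 17 subunits and regulators of the anaphase-promoting complex had a median of -0.29 at 10 µM, with Fzr1, the Cdh1 activator, at -0.49 and Anapc11 at 0.49. The 13 cohesin genes had a median of -0.34 at 10 µM, with Rad21 at -0.77 and Smc1a at -0.59.

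Among lists of other cell cycle genes, the 12 mitotic kinesins were nearest to the members, with 7 called lower and medians of -1.17 (10 µM) and -0.17 (20 µM), and differences at 10 µM from -1.44 for Kif11 to -0.20 for Kif18a. Of the 42 genes of DNA replication and nucleotide supply 0 were called, and their median was -0.19 at 10 µM and -0.00 at 20 µM. Their differences at 10 µM ran from -0.76 for Mcm7 to 0.94 for Mcm2. For the 11 G1 cyclins, kinases and other G1 regulators the median was -0.17 at 10 µM and -0.03 at 20 µM; Cdkn2c, an inhibitor of Cdk4 and Cdk6, fell by 1.38 at 10 µM and Myc differed by 0.44. The differences between lists were not tested.

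**Figure D5:**
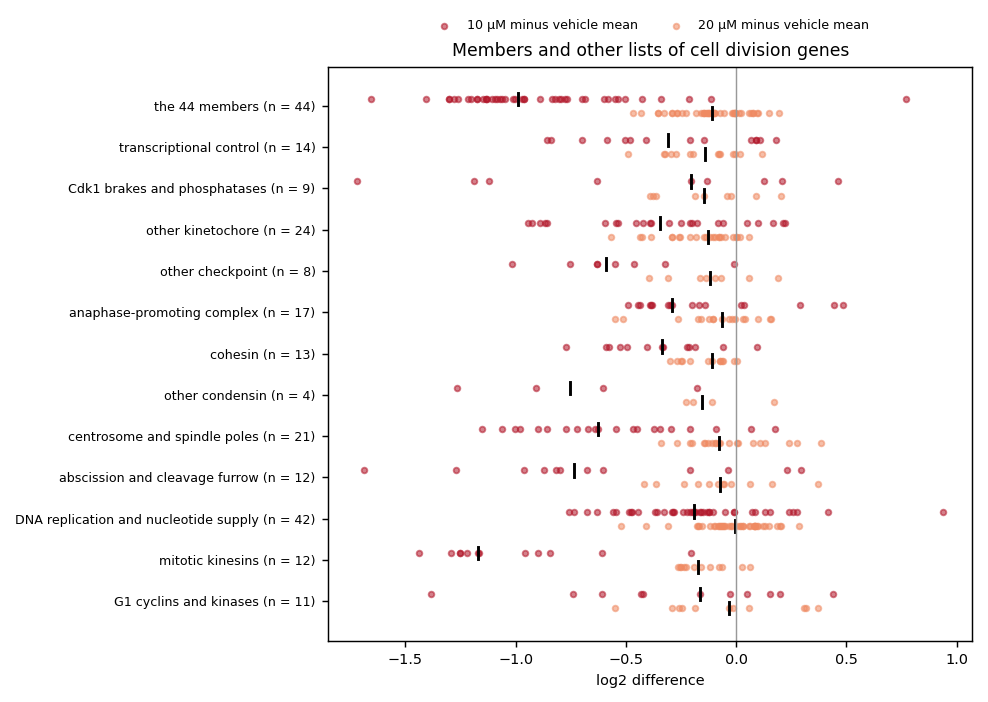
Log2 differences from the vehicle mean (x axis) at 10 µM and 20 µM for the 44 members, 9 other lists of cell division genes and 3 lists of other cell cycle genes, with 1 point per gene and black bars for medians. At 10 µM the medians are -0.99 for the members, -1.17 for mitotic kinesins and -0.19 for DNA replication genes.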

How the data were processed

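RNA of 4 N9 samples was hybridised to Affymetrix arrays. The authors deposited log2 values for probe sets, made, per the submitters' processing notes, by RMA in Expression Console 1.2.1.20 (background correction, quantile normalization between arrays, median polish over probes). Per the labels' protocols the RNA was TRIzol-extracted and prepared with the WT PLUS kit. The genome build is not given in the sources used here, and the values carry no detection call. Of 41345 probe sets, 23521 had 1 gene symbol, 1814 had several and 16010 were not listed; the probe set with the highest mean was taken per gene, which left 22180 genes.

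limma 3.58.1 (R 4.3.3, lmFit and eBayes, default settings) was fitted to all genes, with Benjamini-Hochberg adjustment and a threshold of 0.05, once with 3 groups (10 µM, 20 µM, vehicle) and once with nimodipine against vehicle. It was also run on simulated data in which all 4 arrays varied like the vehicle pair. That run cannot check this assumption for the single array of each dose. Separate cultures are not named in the labels, so the spread behind the p-values may be technical; precision is limited by the number of arrays. The protocol names a vehicle per dose but assigns neither vehicle array to one. The members and lists were chosen with earlier results of these data known. In each role, the 3 members with the largest and the 1 with the smallest absolute difference at 10 µM were given by array, and all called members and those above vehicle were named; of other lists, the 2 largest differences (of the 3 lists of other cell cycle genes, the extremes). Promoter windows came from RefSeq (GRCm38.p6).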

Additional observations from a re-analysis of the deposited data

How the results depend on the processing

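At 10 µM 43 of the 44 members lay below the vehicle mean under each alternative scaling tried. The filter could not change that count, because all 44 members passed it. Nor could the single vehicle arrays, because 43 members lay below both. At 20 µM 34 members lay below the vehicle mean. Their number became 24 against vehicle 1 alone and 37 against vehicle 2 alone. It was 29 with cyclic loess and 36 with equal array medians. Counting members below the mean was chosen after seeing the data. Called lower at 10 µM by limma were 22 members, and 14 of them were called under all 9 settings fitted. The count was 36 among genes at or above the median level, 37 with a trend, 14 with all probe sets tested and 0 at an adjusted p under 0.01, with 882, 792, 144 and 14 genes called lower in all. Of 10 µM against 20 µM, 1 member was called lower, and 28, 30, 0 and 0 under the same alternatives, 9 with equal array medians, 6 with cyclic loess and 12 at an adjusted p under 0.1. For this contrast no counts over all genes are given under the alternatives, so its shifts are not read as a result about the members. The cause of these shifts was not tested. With nimodipine as 1 group, leaving out the 20 µM array gave the same test as the 10 µM contrast of the 3-group fit, so it adds no further count. Leaving that array out of the 3-group fit also repeated the main test of 10 µM against vehicle. Averaging probe sets changed the values of Cks2 alone among the members. The 9 settings are therefore not 9 separate checks. At 20 µM the count was 0 under every alternative. Members lower by 1 or more at 10 µM numbered 22, beside 1.06% of all genes. With single vehicle arrays they numbered 17 to 25, and 39 members were lower by 0.5 or more. No share of all genes is given for the counts with single vehicle arrays or at 0.5, so those counts describe the members only. Leaving out a vehicle array in the 3-group fit left no residual degrees of freedom, so no test was run there, and the 20 µM array adds none to the contrast of 10 µM with vehicle. No paired analysis was possible because the labels imply a vehicle for each dose but do not say which vehicle array goes with which dose, and the nimodipine arrays carry no replicate numbers. With 1 array per dose, a difference between cultures and an effect of the dose cannot be told apart.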
